A study of Mus musculus with 8 samples.

Results

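The genes described here encode the machinery that copies DNA and keeps it supplied with nucleotides. A list of 43 mouse genes was searched for among the array's gene symbols, and every probe set whose only symbol was a listed gene was taken. That gave 41 genes on 56 probe sets, out of 8251 genes on 10833 probe sets that carry 1 symbol. Pole had no probe set under its symbol, and the Tyms probe sets also carry the symbol of a Tyms pseudogene. Each of the 41 genes is described with its probe set of highest mean signal. The members were 12 genes of origin recognition and helicase loading, 6 of DNA polymerases and primase, 10 of the sliding clamp, its loader and the single-strand binding protein, 3 of Okazaki fragment and RNA-DNA removal, 4 of nucleotide supply, 3 of histone deposition and 3 of the control of S phase entry.

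The study measured RNA of cumulus cells, which ensheath the oocyte inside the follicle, during ovulation. The mutant mice were Ptger2-/- (EP2KO), which lack the prostaglandin E2 receptor EP2 in all tissues, and they were compared with wild-type (WT) mice. All mice were C57Bl/6 females 3 to 4 weeks old and received 5 IU of PMSG, a gonadotropin that makes follicles grow, and, 48 h later, 5 IU of hCG, which triggers ovulation. Cells were taken without hCG (0 h) and 3, 9 or 14 h after it, with 1 Affymetrix MG_U74Av2 array for each genotype and time, 8 arrays in all. At 0, 3 and 9 h complexes were released by puncturing follicles, and the oocytes were freed of their cumulus cells manually. At 14 h the complexes came from the oviduct after ovulation, and hyaluronidase was used. Time and manner of collection therefore cannot be told apart in any comparison of 14 h with an earlier time. All RNA went through 2 rounds of amplification from 100 ng. Values are RMA signals on the log2 scale, on which a difference of 1 is a doubling, and signals of different probe sets are not comparable as amounts. How many mice each array stands for was not stated in the labels used here. No group was repeated, so the p-values for times take their spread from what time and genotype leave over. That spread may be technical, and it also holds any difference between genotypes that varies with time.

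Replication begins when the origin recognition complex, CDC6 and CDT1 load the ring-shaped MCM helicase onto DNA, and CDC45 turns the loaded ring into an active helicase. DNA polymerase alpha with its primase starts each strand, replication factor C (RFC) loads the PCNA clamp, and polymerase delta extends the strand, while replication protein A (RPA) covers exposed single strands. FEN1 and DNA ligase I finish the Okazaki fragments of the lagging strand, and ribonucleotide reductase makes the deoxynucleotides. Many of these genes are switched on together at the entry into S phase by the E2F transcription factors. Granulosa and cumulus cells of growing follicles divide, and the surge of luteinizing hormone, which hCG imitates, is known to end that growth as the cells differentiate.

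The promoters of 7 members are shown for the E2F words they hold, short sequences that E2F factors are known to bind. RefSeq promoters on GRCm38.p6, from 250 bases before to 50 bases after the annotated start, were at hand for 35 of the 41 members. They were searched on both strands for the words TTTCGCGC, TTTGGCGC, TTTCCCGC and TTTGCCGC. At least 1 of these words was present in 12 of the 35 members (34.3%), against 2.6% of all 27025 genes with such a promoter. Capitals mark the words, which read as the reverse complement where they lie on the opposite strand, and the longest capital runs in Mcm5 and Mcm6 are 2 overlapping words on opposite strands. Pclaf, Cdc6, Mcm3 and Pola1 fell the most after hCG among the members with a word, and Mcm7 and Mcm5 are helicase subunits that fell early. Mcm6 is shown because it held 3 words and did not pass the test at 14 h. The intervals are chr9:65890073-65890372 on the plus strand for Pclaf, chr11:98907901-98908200 on the plus strand for Cdc6 and chr1:20820263-20820562 on the minus strand for Mcm3. The others are chrX:93632106-93632405 on the minus strand for Pola1, chr5:138171834-138172133 on the minus strand for Mcm7 (1 of its 2 promoters), chr8:75109259-75109558 on the plus strand for Mcm5 and chr1:128359656-128359955 on the minus strand for Mcm6. All are written 5′ to 3′ along the gene's own strand.
Pclaf: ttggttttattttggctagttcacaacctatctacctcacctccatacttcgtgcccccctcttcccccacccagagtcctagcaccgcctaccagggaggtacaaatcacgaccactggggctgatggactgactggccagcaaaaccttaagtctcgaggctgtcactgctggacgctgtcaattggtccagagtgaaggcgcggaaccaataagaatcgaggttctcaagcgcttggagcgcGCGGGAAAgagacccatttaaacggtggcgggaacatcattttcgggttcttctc
Cdc6: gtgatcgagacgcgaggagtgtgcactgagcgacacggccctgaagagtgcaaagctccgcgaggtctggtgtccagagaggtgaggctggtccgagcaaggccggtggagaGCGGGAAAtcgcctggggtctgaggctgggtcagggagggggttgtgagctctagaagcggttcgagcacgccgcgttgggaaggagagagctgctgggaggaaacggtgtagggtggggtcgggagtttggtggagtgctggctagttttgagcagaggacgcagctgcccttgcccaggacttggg
Mcm3: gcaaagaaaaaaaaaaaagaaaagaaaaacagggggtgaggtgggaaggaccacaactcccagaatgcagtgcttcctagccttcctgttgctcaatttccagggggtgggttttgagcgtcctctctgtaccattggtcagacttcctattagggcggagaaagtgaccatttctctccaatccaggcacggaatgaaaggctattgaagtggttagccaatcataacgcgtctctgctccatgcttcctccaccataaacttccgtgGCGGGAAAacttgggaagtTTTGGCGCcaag
Pola1: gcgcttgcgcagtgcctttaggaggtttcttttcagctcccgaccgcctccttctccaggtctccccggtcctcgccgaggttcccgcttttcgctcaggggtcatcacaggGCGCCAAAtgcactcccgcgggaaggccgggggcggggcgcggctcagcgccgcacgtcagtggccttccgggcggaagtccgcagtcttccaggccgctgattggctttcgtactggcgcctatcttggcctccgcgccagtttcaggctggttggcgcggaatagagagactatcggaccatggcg
Mcm7: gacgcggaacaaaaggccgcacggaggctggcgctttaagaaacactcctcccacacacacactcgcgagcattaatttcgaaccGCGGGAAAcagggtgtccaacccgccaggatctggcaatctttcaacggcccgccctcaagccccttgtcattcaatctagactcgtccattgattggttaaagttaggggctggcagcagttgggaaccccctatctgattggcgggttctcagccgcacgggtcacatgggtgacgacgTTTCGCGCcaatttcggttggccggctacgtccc
Mcm5: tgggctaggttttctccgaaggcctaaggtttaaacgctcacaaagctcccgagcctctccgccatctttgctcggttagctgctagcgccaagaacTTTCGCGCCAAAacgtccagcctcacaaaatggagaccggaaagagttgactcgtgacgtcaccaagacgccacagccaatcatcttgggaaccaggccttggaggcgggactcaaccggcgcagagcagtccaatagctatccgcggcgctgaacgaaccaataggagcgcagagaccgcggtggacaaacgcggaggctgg
Mcm6: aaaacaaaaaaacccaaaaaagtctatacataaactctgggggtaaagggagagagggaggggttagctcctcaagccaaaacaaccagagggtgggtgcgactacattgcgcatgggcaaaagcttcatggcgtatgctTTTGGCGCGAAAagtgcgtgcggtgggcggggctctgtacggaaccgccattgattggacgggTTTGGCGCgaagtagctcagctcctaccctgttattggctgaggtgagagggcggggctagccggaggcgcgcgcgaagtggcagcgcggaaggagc

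The other 5 members with a word were Orc1, Rfc3, Lig1, Pold1 and Cdt1. The 12 genes held 18 words in all, of which 11 lay within 100 bases of the annotated start, and 5 genes held 2 or more. Of the 30 members with a promoter that fell at 14 h, 10 held a word, as did 2 of the 5 that did not fall. The CCAAT box, searched as CCAAT, was present in 22 of the 35 members (62.9%, against 41.1% of all genes), and the GC box, searched as GGGCGG, in 25 (71.4%, against 38.2%). The CHR element, searched as TTTGAA, was present in 4 (11.4%, against 20.2%). One E2F word, in Mcm7, overlapped a CCAAT box, and none overlapped a GC box or a CHR element. A match is a stretch of letters and shows no binding.

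**Figure D1:**
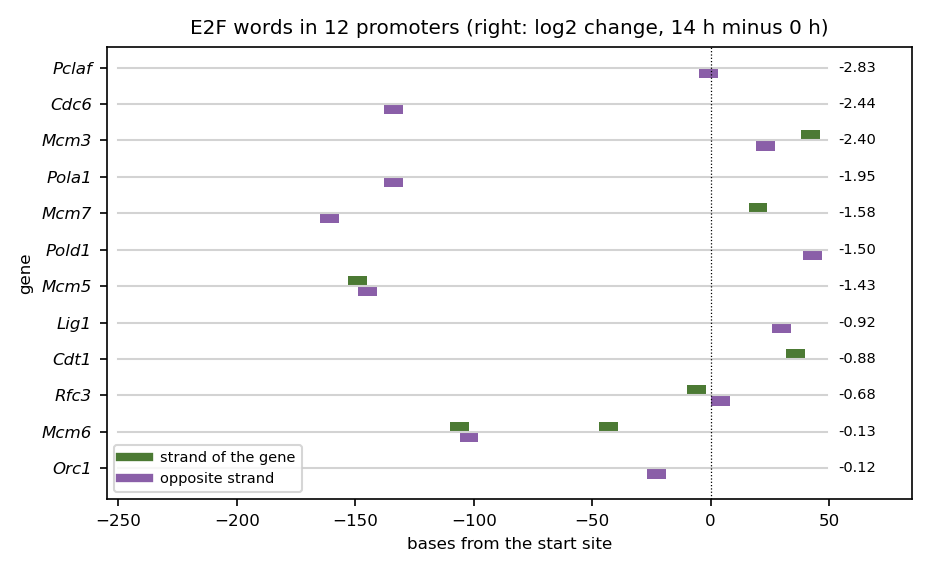
Positions of the 18 E2F words in the promoters of 12 members, in bases from the annotated transcription start at 0, with 1 row per gene. The 11 words within 100 bases of the start include both words of Mcm3 and of Rfc3, while those of Cdc6, Pola1 and Mcm5 lie farther upstream.

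Several properties of the arrays bear on the time course. Ptger2 measured 4.57, 4.24, 4.69 and 4.51 in EP2KO arrays at 0, 3, 9 and 14 h, against 4.95, 5.97, 5.37 and 5.33 in WT arrays. Each EP2KO value lay below each WT value, and the difference of −0.90 did not pass limma's test (adjusted p = 0.528). The median signal of an array ran between 7.79 and 7.89. The 11 measured granulosa and cumulus markers, Fshr and Inha among them, averaged 9.94 and 10.04 in the EP2KO and WT arrays at 14 h, against 11.55 and 11.50 at 0 h, and 8 of the 11 fell. At 14 h, 6 of 19 leukocyte markers rose (mean 7.61 and 7.35, against 7.05 and 7.14 at 0 h). Of 11 oviduct markers 5 rose and 1 fell (mean 8.18 and 7.97, against 7.37 and 7.48 at 0 h). Of 5 erythroid markers 1 rose (mean 8.59 and 8.48, against 8.07 and 7.91 at 0 h). Of 8 endothelium markers 1 rose and 1 fell, and no theca and stroma marker passed. Over all probe sets 13.5% rose and 15.2% fell at 14 h. The oocyte marker mean stayed between 6.91 and 7.36. The Gapdh signal at the 3′ end exceeded that at the 5′ end by 2.82 in EP2KO and 2.87 in WT cells after 14 h, compared with 1.48 and 1.86 before hCG. For Actb this excess was 1.37 and 1.61 after 14 h, compared with 0.69 and 0.97. The part of these differences in the changes at 14 h was not tested.

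Most of the replication genes fell after hCG and none rose at the later times. After 14 h, 34 of the 41 members were lower than at 0 h by limma's moderated test with time and genotype as terms (adjusted p under 0.05 over all 12422 probe sets), and none was higher, against 15.2% lower and 13.5% higher among all probe sets. The median change was −0.93 over the members and −0.06 over all probe sets. The signal at 14 h was below that at 0 h in both genotypes for 39 of the 41 members (95.1%), against 41.9% of all probe sets. It was the lowest of the 4 times in both genotypes for 33 members (80.5%), against 14.8% of all probe sets. In cells measured in bulk, fewer cells of a type and less RNA per cell cannot be told apart. After 9 h, when 21 members were lower than at 0 h, no oviduct marker passed the test, 1 leukocyte marker rose, and 9 of the 11 granulosa and cumulus markers fell. At that time 2 of 5 erythroid markers rose (mean 8.15 in EP2KO and 9.20 in WT cells, against 8.07 and 7.91 before hCG), 2 of 8 endothelium markers rose and 1 fell, 2 of 14 oocyte markers fell, and 1 of 11 theca and stroma markers fell. The Actb signal at the 3′ end exceeded that at the 5′ end by 1.12 and 1.54, against 0.69 and 0.97 before hCG. For Gapdh this excess was smaller than before hCG, 1.22 and 1.71 against 1.48 and 1.86. The part of these differences in the changes at 9 h was not tested.

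**Figure D2:**
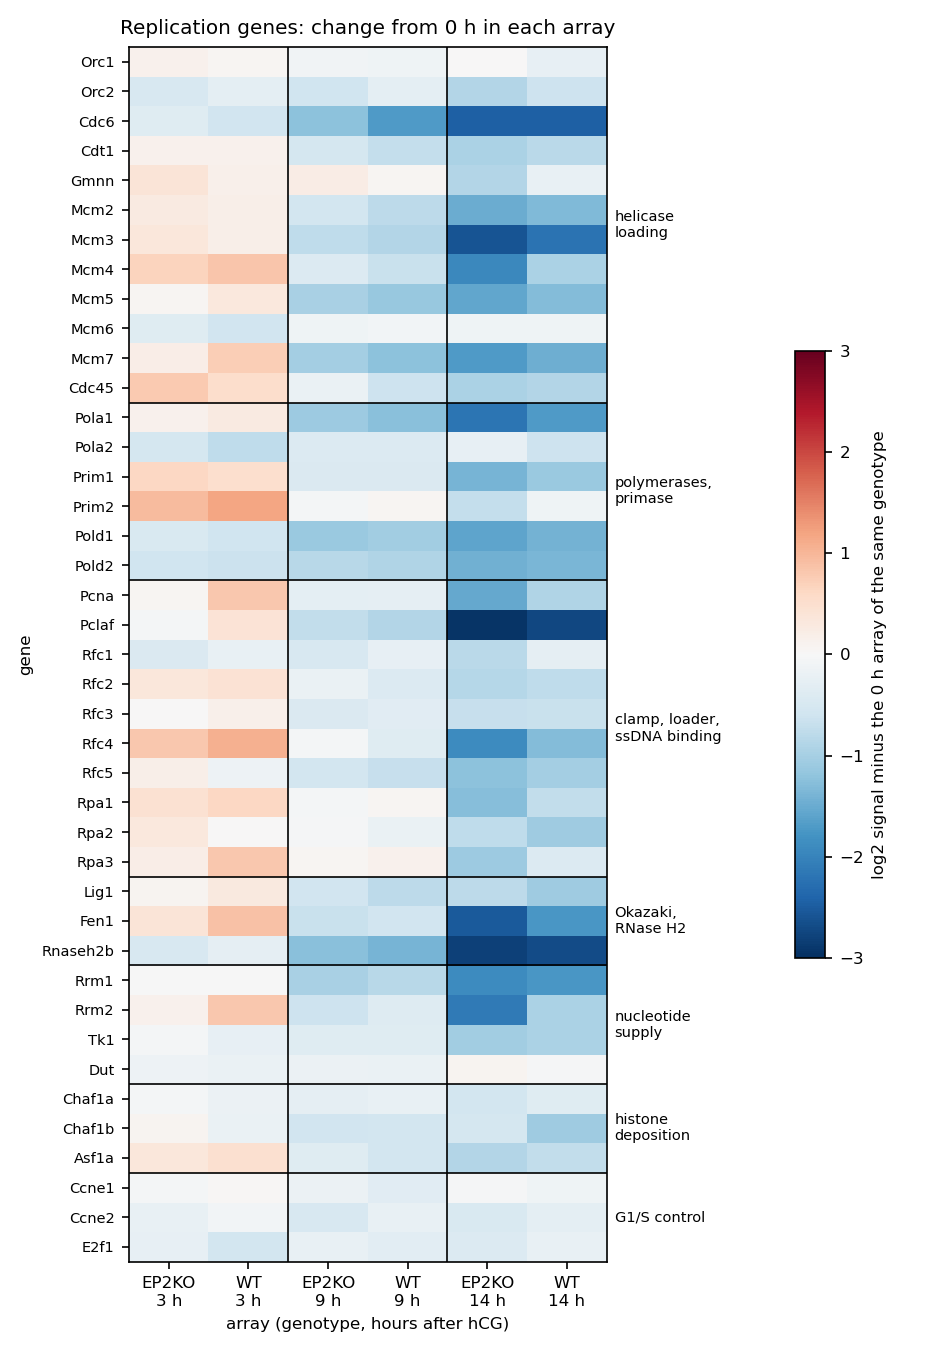
Change of each of the 41 members from the 0 h array of the same genotype, on the log2 scale, at 3, 9 and 14 h in EP2KO and WT cumulus cells, with genes ordered by role. Colours at 3 h are mixed, and at 14 h 39 of the 41 members were below 0 h in both genotypes, with the deepest falls in Pclaf, Rnaseh2b, Cdc6 and Mcm3.

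Of the 12 genes of origin recognition and helicase loading, 9 fell at 14 h, with a median change of −1.17 over the 12. Cdc6, the loading factor that recruits the helicase to origins, measured 9.50, 9.13, 8.26 and 7.06 in EP2KO arrays at 0, 3, 9 and 14 h, against 9.35, 8.77, 7.65 and 6.90 in WT arrays. It was lower at each later time in both genotypes, and at 14 h it was 5.45-fold lower than at 0 h (−2.44 ± 0.139 SE on the log2 scale, limma adjusted p = 1.11e-06). Mcm3, a subunit of the helicase ring, measured 11.22, 11.57, 10.45 and 8.63 in EP2KO arrays against 11.04, 11.22, 10.15 and 8.83 in WT arrays. The 14 h values lay more than 2 log2 units below the 0 h values in both genotypes, a 5.28-fold difference (−2.40 ± 0.146 SE, adjusted p = 1.64e-06). Mcm7 measured 10.33, 10.54, 9.30 and 8.63 in EP2KO arrays against 9.93, 10.66, 8.69 and 8.47 in WT arrays, and was 2.99-fold lower at 14 h. Mcm4, Mcm5 and Mcm2, the other subunits that fell, changed by −1.44, −1.43 and −1.41.

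Among the loading factors, Cdt1 changed by −0.88 at 14 h, Orc2 of the origin recognition complex by −0.75 and Cdc45 by −0.93, and all 3 passed the test. Geminin (Gmnn), which binds CDT1 and blocks further loading, changed by −0.56 and did not pass (adjusted p = 0.0558). It was 7.65 in the EP2KO array at 14 h, against 8.24 in the WT array. Orc1 and Mcm6 did not pass either, with changes of −0.12 and −0.13. Signals were low for both, Orc1 between 5.75 and 6.12 and Mcm6 between 5.53 and 6.11 over the 8 arrays, and Mcm6 was lower at 3 h by the test. They are among the 5 members, with Pola1, Prim1 and Ccne2, whose mean signal lay in the lowest 40% of all probe sets, where a low value may be near background.

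Of the 6 polymerase and primase genes, 5 fell at 14 h, with a median of −1.33 over the 6. Pola1, the catalytic subunit of polymerase alpha, measured 8.08, 8.22, 6.98 and 5.90 in EP2KO arrays at the 4 times, against 7.94, 8.21, 6.68 and 6.23 in WT arrays. The 0 h and 14 h arrays did not overlap, and the difference was 3.85-fold (−1.95 ± 0.151 SE, adjusted p = 7.84e-06). Polymerase delta fell in both of its subunits among the members, Pold1 by 1.50 and Pold2 by 1.42 on the log2 scale. Its subunit Pold4, which is not a member, rose and is given below with the other replication factors. Of the primase subunits, Prim1, which makes the RNA primer, changed by −1.25, and Prim2, its regulatory partner, changed by −0.43 and did not pass (adjusted p = 0.0555). The difference between them was not tested. Prim2 measured 7.97, 8.92, 7.91 and 7.25 in EP2KO arrays against 7.55, 8.73, 7.60 and 7.42 in WT arrays, with its highest value at 3 h in both. Pola2, the regulatory subunit of polymerase alpha, had the smallest change of the 5 that fell, −0.44.

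Each of the 10 genes of the clamp, its loader and RPA fell at 14 h, with a median of −0.96. Pclaf, a small protein that binds PCNA, had the largest change of all members on its probe set of highest mean. It measured 10.55, 10.48, 9.80 and 7.61 in EP2KO arrays at 0, 3, 9 and 14 h, against 10.45, 10.86, 9.58 and 7.73 in WT arrays. The genotypes lay close together and most of the drop came after 9 h, ending 7.11-fold lower at 14 h than at 0 h (−2.83 ± 0.150 SE, adjusted p = 6.49e-07). Its other probe sets, with signals between 4.57 and 5.68, changed by −0.56, which passed, and by −0.21, which did not. Pcna itself measured 11.62, 11.67, 11.33 and 10.08 in EP2KO arrays against 11.36, 12.18, 11.10 and 10.46 in WT arrays. It was 2.33-fold lower at 14 h (−1.22 ± 0.190 SE, adjusted p = 7.52e-04). Of the 5 loader subunits, Rfc4 changed most, by −1.60, followed by Rfc5 (−1.12), Rfc2 (−0.82), Rfc3 (−0.68) and Rfc1 (−0.54), which is the large subunit. The 3 subunits of RPA changed by −1.02 (Rpa1), −0.91 (Rpa2) and −0.74 (Rpa3).

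The genes that finish lagging strands and remove RNA from DNA had the largest median change of any role, −2.14, and all 3 fell. Rnaseh2b, a subunit of ribonuclease H2, which cuts ribonucleotides out of DNA, measured 9.33, 8.84, 8.08 and 6.53 in EP2KO arrays at the 4 times, against 9.08, 8.81, 7.68 and 6.39 in WT arrays. It was lower at each later time in both genotypes and ended 6.70-fold lower (−2.75 ± 0.127 SE, adjusted p = 3.38e-07). Fen1, the flap nuclease, measured 8.40, 8.79, 7.74 and 5.88 in EP2KO arrays against 7.91, 8.80, 7.34 and 6.16 in WT arrays. Its 14 h value was 4.39-fold below that at 0 h (adjusted p = 1.13e-05), after a rise at 3 h. Lig1, which seals the nicks, changed by −0.92. The other subunits of ribonuclease H2 are not members. The catalytic Rnaseh2a measured 9.62 and 9.56 in the EP2KO and WT arrays at 14 h, against 8.55 and 8.57 at 0 h, and rose by 1.03. Rnaseh2c fell by 0.84 on the log2 scale at 14 h, as Rnaseh2b did in direction, after a rise of 1.26 at 3 h.

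Ribonucleotide reductase and thymidine kinase fell, whereas the dUTPase did not. Rrm1, the large subunit of the reductase, measured 10.75, 10.73, 9.78 and 8.86 in EP2KO arrays at 0, 3, 9 and 14 h, against 10.56, 10.54, 9.73 and 8.81 in WT arrays. The genotypes differed by at most 0.19 at any time, and the signal was 3.53-fold lower at 14 h than at 0 h (−1.82 ± 0.116 SE, adjusted p = 2.00e-06). Rrm2, the small subunit that turns over with the cell cycle, was 7.13 in the EP2KO array at 14 h and 7.81 in the WT array, against 9.26 and 8.77 at 0 h, and changed by −1.55. Tk1, which salvages thymidine, changed by −0.99. Dut, which destroys dUTP, stayed between 7.66 and 7.98 over the 8 arrays with a change of 0.02, and passed the test in none of the comparisons of times.

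The histone deposition genes had smaller changes on their probe sets of highest mean. The other probe set of Asf1a changed by −1.635 at 14 h (limma adjusted p = 7.7e-06). Chaf1b and Chaf1a, subunits of the chromatin assembly factor that places histones on new DNA, changed by −0.80 and −0.46, and Asf1a, a histone chaperone, by −0.82, and all 3 passed the test. Among the genes that control S phase entry, Ccne2 alone passed, with a change of −0.37 at a signal between 3.67 and 4.25, the lowest of all members. Its paralog Ccne1 measured 8.93, 8.88, 8.76 and 8.90 in EP2KO arrays against 9.05, 9.08, 8.72 and 8.91 in WT arrays, and passed in no comparison of times. E2f1, the transcription factor, changed by −0.32 and did not pass (adjusted p = 0.113). Its other probe set changed by −0.55 and did pass.

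**Figure D3:**
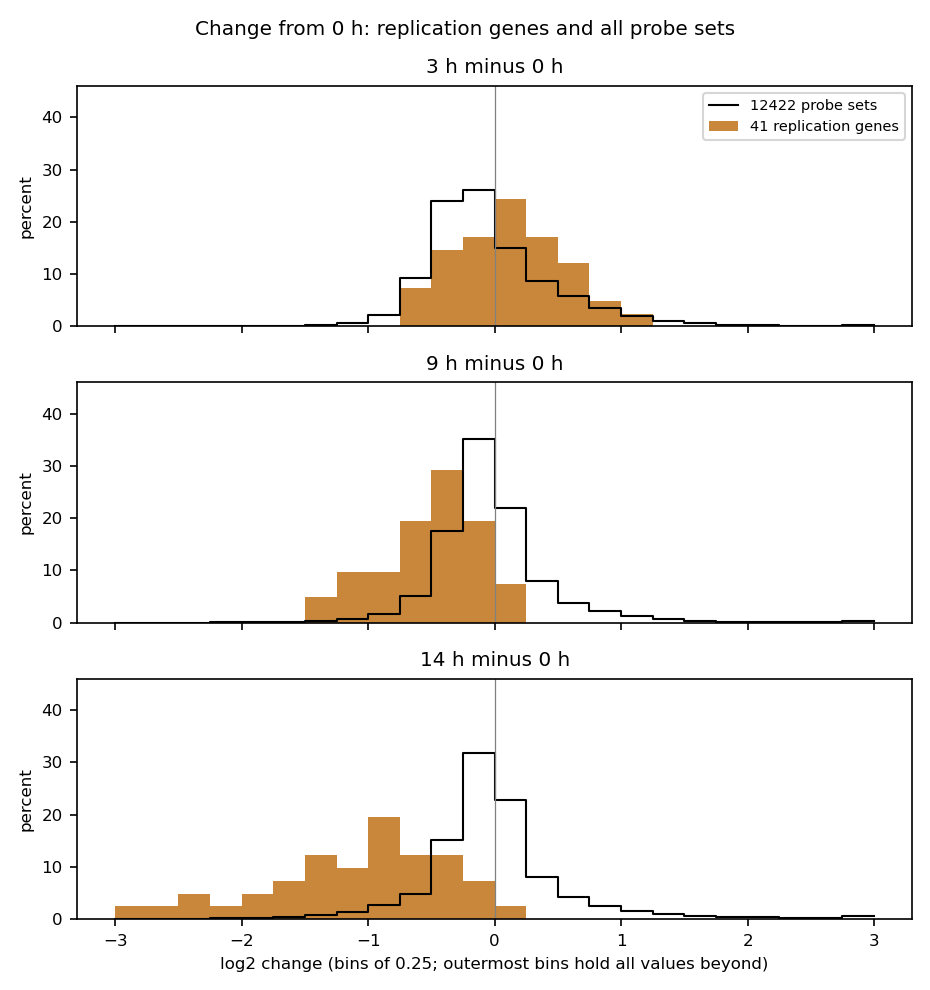
Distribution of the change from 0 h (log2, mean over both genotypes) at 3, 9 and 14 h, as the percent of the 41 members (filled bars) and of all 12422 probe sets (line) in each bin of width 0.25. The members' medians are 0.16, −0.44 and −0.93, and at 14 h the members run from −2.83 in Pclaf to 0.02 in Dut.

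The course through the 4 times is given by role, without a test between roles. At 9 h, 21 members were already lower than at 0 h and none was higher, against 12.1% lower and 10.9% higher of all probe sets. The median change was −0.44 over the members and −0.08 over all probe sets. The largest changes at 9 h were those of Cdc6 (−1.47), Rnaseh2b (−1.33), Pola1 (−1.18), Mcm7 (−1.14), Pold1 (−1.08) and Mcm5 (−1.05). The count fell to 13 without the WT array at 0 h and to 10 without the WT array at 9 h. Of the polymerase and primase genes 5 of 6 had fallen by 9 h, and of the helicase loading genes 7 of 12, and of the clamp, loader and RPA genes 3 of 10.

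As a share of the change at 14 h, the change present at 9 h had a median of 52.2% over the 34 members that fell. It was 61.5% for polymerases and primase, 59.7% for helicase loading, 57.1% for histone deposition, 48.3% for Okazaki fragment genes, 36.7% for nucleotide supply and 25.6% for the clamp, loader and RPA. Single members spread widely within these roles. Lig1 (74.5%), Mcm5 (73.4%) and Mcm7 (71.8%) had most of their change by 9 h. Rfc4 and Rpa2 had 13.2% of it and Rpa1 had 0%. Rpa1 illustrates the late course, with 9.45, 9.91, 9.40 and 8.17 in EP2KO arrays at 0, 3, 9 and 14 h, against 8.99, 9.62, 9.04 and 8.24 in WT arrays. It returned at 9 h to about its starting level in both genotypes before it fell.

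**Figure D4:**
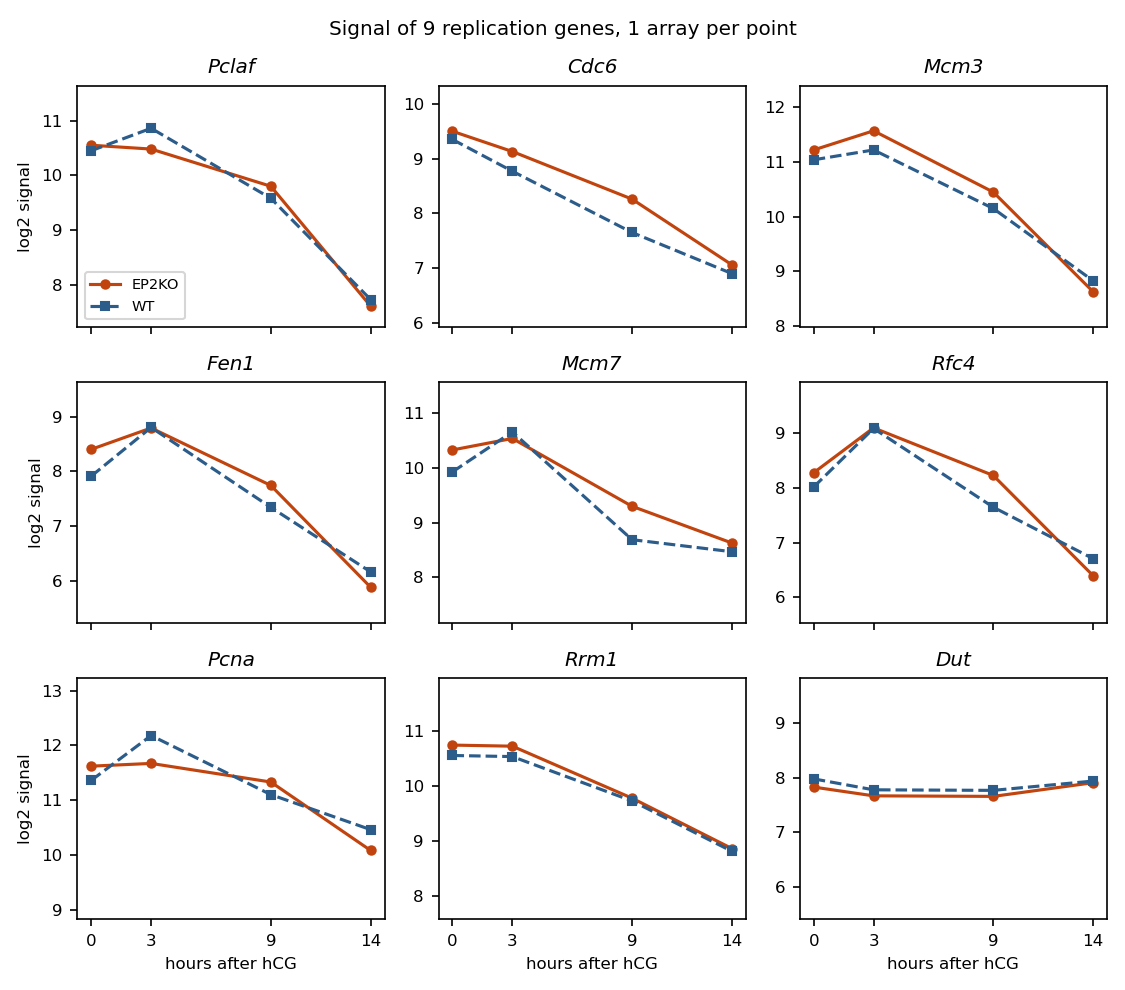
Signals (log2) against hours after hCG in EP2KO and WT cumulus cells, for 9 members with 1 array per point. Cdc6 is lower at each later time, Rfc4 is highest at 3 h, and Dut stays between 7.66 and 7.98.

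The first 3 h brought changes in both directions. By 3 h, 11 members had risen and 8 had fallen, against 17.4% higher and 25.4% lower of all probe sets. Neither count is read as a result about the members. After quantile normalization 6 rose and 8 fell, and with each array centred on its median 11 rose and 5 fell. The median was 0.16 over the members and −0.14 over all probe sets. After quantile normalization the members' median was 0.005. The count of 19 fell to 4 without the WT array at 0 h, to 5 without the WT array at 3 h, and to 10 (7 risen, 3 fallen) when only the 4 arrays of these times were fitted. The largest rise was that of Prim2 (1.07 ± 0.148 SE, adjusted p = 6.22e-04), followed by Rfc4 (0.95), Mcm4 (0.75), Cdc45 (0.66) and Fen1 (0.64). Rfc4 measured 8.28, 9.10, 8.23 and 6.40 in EP2KO arrays at the 4 times, against 8.02, 9.09, 7.65 and 6.71 in WT arrays, so the 3 h arrays were the highest in both genotypes. Mcm7, Prim1, Rpa1, Rpa3, Rfc2 and Asf1a also rose, by between 0.40 and 0.57.

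The 8 members that had fallen by 3 h were Orc2, Cdc6, Mcm6, Pola2, Pold1, Pold2, Rnaseh2b and E2f1, with the largest change in Pola2 (−0.65). Of the 11 that had risen, 10 had fallen below their 0 h level by 14 h, and Prim2, also lower at 14 h in both genotypes, did not pass. The highest of the 4 times was 3 h in both genotypes for 22 members (53.7%), against 15.1% of all probe sets, and 0 h for 13 (31.7%), against 23.1%. The arrays at 3 h and 0 h did not overlap, with 3 h higher, for 21 members (51.2%), against 26.4% of all probe sets. These shares use the deposited values and were not computed under another scaling. In the 3 h arrays Gapdh was 0.96 (EP2KO) and 0.80 (WT) higher at its 3′ than at its 5′ end. Before hCG these values were 1.48 and 1.86. The same measure of Actb went from 0.69 to 0.76 in EP2KO cells and from 0.97 to 0.73 in WT cells. By limma's test of 3 h against 0 h, 6 of the 11 granulosa and cumulus markers fell and 1 rose. Whether these differences bear on the 3 h shares was not tested.

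Between 3 and 9 h, 26 members fell and none rose, against 11.8% lower and 7.59% higher of all probe sets, and 16 fell without the WT array at 9 h. Mcm7 changed most in this interval (−1.61), followed by Pola1 (−1.39), Mcm4 (−1.29), Fen1 (−1.26) and Mcm5 (−1.23). Between 9 and 14 h, 23 members fell and none rose, against 10.1% lower and 10% higher (20.1% in all) of all probe sets. That count fell to 11 without the EP2KO array at 9 h, to 12 without the EP2KO array at 14 h, and to 5 when only the 4 arrays of these times were fitted. Pclaf changed most (−2.02), followed by Mcm3 (−1.57), Fen1 (−1.52), Rnaseh2b (−1.42) and Rfc4 (−1.39). Both steps were passed by 18 members, among them Cdc6, Mcm2, Mcm3, Mcm4, Pola1, Pcna, Pclaf, Rrm1 and Rrm2. The early step alone was passed by 8 members, Cdt1, Mcm5, Mcm7, Prim2, Rfc3, Lig1, Chaf1b and Asf1a, and the late step alone by 5, Gmnn, Pold2, Rpa2, Rpa3 and Tk1. Passing in 1 step and not in the other was not tested as a difference. The counts by step were not taken over all probe sets and are not read as a result about the members.

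The absence of EP2 made no difference to these genes that passed the test. EP2KO minus WT over the 4 times gave 0 of 41 members by limma, as it did for all probe sets (0%). An unadjusted p under 0.05 was reached by 5 members and by 642 of all 12422 probe sets. The median difference was 0.11, against −0.0025 over all probe sets. Of the 41 differences 34 were above 0 and 7 below, and 6359 of the 12422 were below 0. The smallest adjusted p of a member was 0.870, that of Pold1, which measured 10.50, 10.04, 9.38 and 8.91 in EP2KO arrays at 0, 3, 9 and 14 h, against 10.16, 9.56, 9.12 and 8.75 in WT arrays. Each EP2KO value exceeded the WT value of the same time, by 0.31 on average, and the SE of a member's genotype difference had a median of 0.0966.

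The differences at single times are values only. At 0 h, 33 members were higher in the EP2KO array (median difference 0.13), at 3 h 29 (0.10), at 9 h 33 (0.23) and at 14 h 17 (−0.04). Over all probe sets, 45.2%, 53.5%, 45.2% and 53.1% were higher in the EP2KO array at these times. At 9 h, 4 members exceeded the WT value by at least 0.5, namely Cdc6 (8.26 against 7.65), Mcm7 (9.30 against 8.69), Rfc4 (8.23 against 7.65) and Mcm4 (8.79 against 8.25), as did 1.67% of all probe sets. At 14 h, Chaf1b exceeded it by 0.53, and 1.17% of all probe sets did so by at least 0.5. At that time 3 members were lower by at least 0.5 (2.49% of all probe sets), Mcm4, Rrm2 and Gmnn. At 3 h, Pcna alone was lower in the EP2KO array by at least 0.5 (11.67 against 12.18, a difference of 0.51), and no member was higher by 0.5. Of all probe sets 2.97% were lower and 1.12% higher by at least 0.5 at 3 h. Each rests on 1 array of each genotype and has no test.

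The difference between genotypes at 1 time, set against that at the other 3, passed for no member. At 14 h, 0 of 41 passed by limma, against 0.0805% of all probe sets (0.0644% higher and 0.0161% lower). An unadjusted p under 0.05 was reached by 9 members and by 865 of all 12422 probe sets. The largest value was that of Mcm4, with 7.27 in the EP2KO array at 14 h against 7.97 in the WT array, and 9.20, 9.87 and 8.79 in EP2KO arrays at 0, 3 and 9 h against 8.91, 9.74 and 8.25 in WT arrays. Its departure was −1.02 ± 0.219 SE (adjusted p = 0.218). Rrm2 (−0.87) and Gmnn (−0.81) came next, and in all 3 the EP2KO array was lower at 14 h and higher at the other times, except for Rrm2 at 3 h (9.40 against 9.57). At 9 h, 0 of 41 passed (0% of all probe sets), with the largest values in Mcm4 (0.63), Rfc4 (0.59) and Mcm7 (0.46). The unadjusted p at 9 h was under 0.05 for 1 member and for 131 of the 12422 probe sets. At 3 h, 0 of 41 passed (0%), with the largest values in Pcna (−0.55), Mcm7 (−0.51) and Pclaf (−0.45). The unadjusted p at 3 h was under 0.05 for 1 member and for 891 of the 12422 probe sets. A p that misses the threshold does not show that the genotypes were alike.

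**Figure D5:**
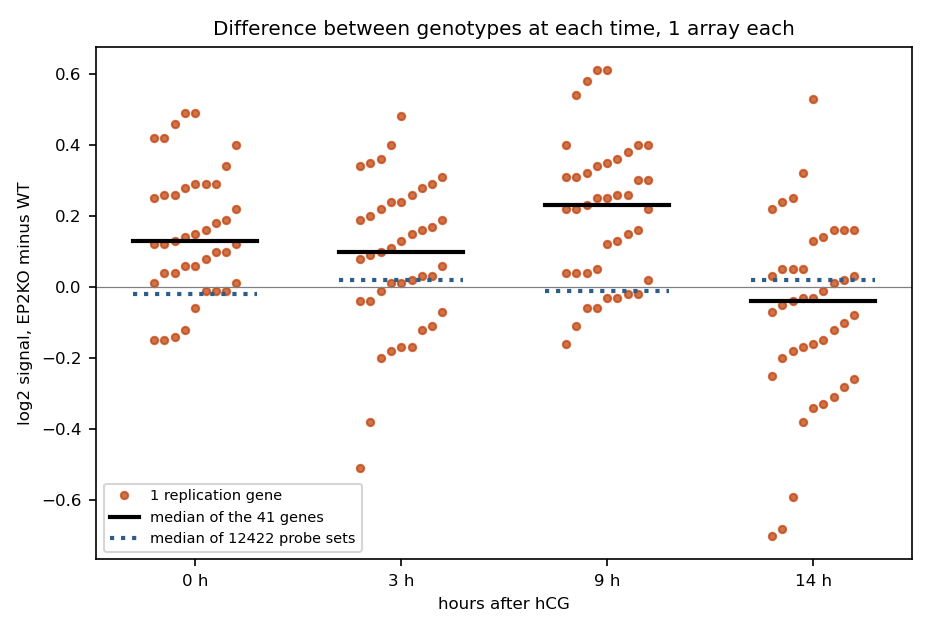
Difference EP2KO minus WT (log2) of each of the 41 members at 0, 3, 9 and 14 h, 1 array of each genotype per time, with the median over members marked. Medians are 0.13, 0.10, 0.23 and −0.04, and at 14 h Mcm4 lies at −0.70 and Rrm2 at −0.68.

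Genes of the same pathways outside the list moved the same way in part. Of 27 other replication factors measured, 20 fell (74.1%) and 3 rose (11.1%) at 14 h, with a median of −0.86. Over all probe sets 15.2% fell and 13.5% rose, with a median of −0.06. Top2a, the topoisomerase that separates new chromosomes, changed by −1.95, Tipin and Topbp1, which act at stalled forks, by −1.66 and −1.55, Wdhd1, which tethers polymerase alpha to the helicase, by −1.42, Cdc7, the kinase that fires origins, by −1.39, and Uhrf1, which maintains DNA methylation, by −1.38. The 3 that rose, named after their values were seen, were Rnaseh2a (1.03), Top2b (0.70) and Pold4 (0.66).

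Of 28 other genes of nucleotide synthesis and salvage, 11 fell (39.3%) and 3 rose (10.7%), with a median of −0.24. Over all probe sets 15.2% fell and 13.5% rose at 14 h, with a median of −0.06. The rises in these lists are not read as a result about them. Dctpp1, a nucleotide-cleaning enzyme, changed by −1.28, Prps1, which starts nucleotide synthesis, by −1.26, and Shmt1, of folate metabolism, by −1.22. Samhd1, which degrades deoxynucleotides, rose by 0.81. Of 10 other histone chaperones and histone supply genes 7 fell and 1 rose (median −0.69), with H2ax at −1.31 and the H1 chaperone Nasp at −1.26. Of 18 other genes of E2F and S phase entry control 7 fell and 2 rose (median −0.23). Cks1b, a subunit of cyclin-dependent kinases, changed by −1.39 and cyclin A2 (Ccna2) by −1.09, while the kinase inhibitor Cdkn1a rose by 0.94. Of 20 checkpoint and repair genes 10 fell and none rose (median −0.38), among them Brca2 (−1.17) and Usp1 (−1.15).

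Several members had more than 1 probe set, and not all moved together. The second probe set of Mcm3 changed by −2.59 at 14 h and that of Cdt1 by −0.80, close to the values above. The second probe sets of Mcm5 (−0.04), Rfc5 (0.21), Tk1 (0.03), Orc2 (−0.12) and Lig1 (−0.26) did not pass at 14 h, where those of highest mean did. Those of Rrm1 (−0.48) and Pold1 (−0.37) passed at 14 h with smaller changes than the −1.82 and −1.50 of their first probe sets. At 3 h Asf1a rose by 0.41 on 1 probe set and fell by 1.28 on the other. Pola2 fell by 0.65 on 1 probe set at 3 h and had 0.29 on the other, which did not pass. Second probe sets of Pold1, Rrm1 and Mcm5 changed by −0.93, −0.93 and −0.64 at 3 h, a time at which those of higher mean had −0.53, −0.02 and 0.18. Which probe set follows the transcript was not tested.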

How the data were processed

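The 8 arrays were Affymetrix MG_U74Av2, 1 for each genotype and time. Per the submitters' processing notes the authors made the signals with RMA (version not given in the sources used here), and the deposited values are log2 signals with 2 decimals. They were used as deposited, without a filter on low values. Of 12488 probe sets 66 controls were left out and 12422 tested, of which 396 carry several symbols and 1193 none. Detection calls were not used here. Equal values made up at most 2.54% of any pair of arrays.

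The tests used limma 3.58.1 under R 4.3.3. Times were compared with lmFit and eBayes with time and genotype as terms (3 residual degrees of freedom), and p-values were adjusted by Benjamini-Hochberg over all 12422 probe sets. A departure at 1 time is the interaction of genotype with that time (2 residual degrees of freedom). The number of arrays limits the precision: the median SE of a member's time contrast was 0.137. The fit of 14 h against 0 h was tried on simulated data with independent noise and no effect of genotype. The other comparisons were not simulated. Members and lists were chosen with earlier results of these data known. Named were up to 8 members that fell and 4 that rose per comparison of times, the 3 of smallest p per comparison of genotypes, and up to 6 genes per other list. Members outside that rule are named to complete their role. Alternatives covered scaling, the filter, an intensity trend, averaged probe sets, fewer arrays and the terms of the fit. Promoters and their build come from RefSeq and not from the arrays.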

Additional observations from a re-analysis of the deposited data

How the results depend on the processing

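With 1 array per genotype and time, each comparison of times rests on 2 arrays per time, and low signals may lie near background. At 14 h against 0 h the count of 34 ran from 29 to 35 when each array in turn was left out, and at 9 h against 0 h the count of 21 ran from 10 to 23. At 3 h against 0 h the count of 19 ran from 4 to 20, between 3 and 9 h the 26 ran from 16 to 26, and between 9 and 14 h the 23 ran from 11 to 24. Fitting only the 4 arrays of the times compared gave 10 at 3 h against 0 h and 5 between 9 and 14 h. The alternatives that moved a count by over 1.5 times all used fewer arrays, and the cause was not tested. The count also depended on which array was left out. At 3 h against 0 h it was 4 without the WT array at 0 h and 13 without the EP2KO array at 0 h. EP2KO minus WT and the departures stayed at 0 members in each alternative run. All of the named falls at 14 h (8 of 8) and at 9 h (8 of 8) passed in each alternative that tested them, as did 7 of 8 between 3 and 9 h, 3 of 8 between 9 and 14 h and 3 of 12 named changes at 3 h. Pola1 had no value with the lowest 40% of probe sets left out. The departure of Pclaf at 3 h, −0.45, was 0.011 with its probe sets averaged, and neither passed. The terms of the fit pair the EP2KO and WT arrays of a time, and compare times within a genotype. No other pairing was possible because the labels give no replicate numbers and each group holds 1 array.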

Other observations

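Tyms, thymidylate synthase, makes the thymidine nucleotide from the uridine form, and its 2 probe sets also carry the symbol of a Tyms pseudogene, so their signal cannot be assigned to 1 gene. The first measured 9.35, 10.07, 9.47 and 7.97 in EP2KO arrays at 0, 3, 9 and 14 h, against 8.84, 9.65, 9.02 and 8.12 in WT arrays. It changed by −1.05 at 14 h from 0 h (limma adjusted p = 7.09e-04) after a change of 0.77 at 3 h (adjusted p = 0.00501). The second measured 9.35, 9.76, 9.18 and 8.58 in EP2KO arrays against 9.36, 9.55, 9.05 and 8.37 in WT arrays, and changed by −0.88 at 14 h (limma adjusted p = 2.95e-04). Both had their highest value at 3 h and their lowest at 14 h in each genotype.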
